A study of Mus musculus with 88 samples.

Results

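Nlrp9a, Nlrp9b, Nlrp9c, Nlrp14, Nlrp4a, Nlrp4b, Nlrp4c and Nlrp4e are mouse NLR family genes read out here in single germinal vesicle (GV) oocytes. They are oocyte NLR genes other than those of the subcortical maternal complex, a protein assembly of the oocyte cortex. Each was found by the feature that the study's supplementary table names for it or, failing that, by the overlap of a feature with the annotated gene on the same strand, which gave 8 of the 38540 features of the deposited table. RNA was measured in single GV oocytes of C57BL/6Babr virgin females that ovulated spontaneously, from several mice of each age. Young females were 12 weeks old (42 oocytes) and old females 44 to 54 weeks (45 oocytes), and the strain was the same in both. The study predicted chromatin configuration from the same transcripts. Of the young oocytes, 30 were predicted to have a non-surrounded nucleolus (NSN) and 12 a surrounded nucleolus (SN). Of the old oocytes, 37 were predicted as NSN and 8 as SN. The paper did not determine chromatin organisation at collection. It considers it likely that these classes differ from the true configuration, as SN oocytes were fewer than reported elsewhere, above all among old ones.

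NLR proteins carry a nucleotide-binding NACHT domain followed by leucine-rich repeats, and the NLRP group has a pyrin domain in front. In somatic and immune cells several NLRs sense microbial products and assemble inflammasomes that activate caspase-1. Rodents hold an expanded set of NLRP genes whose transcripts accumulate in growing oocytes, and some of these, Nlrp5 and Nlrp14 among them, are known as maternal effect genes. NSN oocytes still transcribe, whereas SN oocytes have condensed chromatin around the nucleolus and are largely silent, so that their RNA is the store laid down during growth.

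All 8 genes are on chromosome 7 of GRCm38, and all are annotated as protein-coding. Of these, 7 lie between positions 6045161 and 26575615, and Nlrp14 lies apart at 107166990 to 107198102. Among protein-coding genes, Nlrp9c, Nlrp4a and Nlrp9a are direct neighbours, and vomeronasal receptor (Vmn1r) genes adjoin Nlrp9a, Nlrp9b, Nlrp4b and Nlrp4c. Nlrp4e lies 23611 bases from Nlrp5. The features ran from 26535022 to 26574877 for Nlrp9a, from 20003988 to 20290143 for Nlrp9b, from 26364691 to 26403772 on the minus strand for Nlrp9c, from 26435113 to 26498622 for Nlrp4a, from 10687589 to 10730168 for Nlrp4b, from 6045161 to 6109005 for Nlrp4c and from 23300739 to 23362270 for Nlrp4e, the others being on the plus strand. Coding sequences were 82.3% to 87.4% identical among the 3 Nlrp9 genes and 78.0% to 93.9% among the 4 Nlrp4 genes, with Nlrp4c and Nlrp4e the closest pair. Between the Nlrp9 and Nlrp4 genes identity was 57.6% to 61.0%, and Nlrp14 shared 58.3% to 60.8% with the others.

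Promoter sequences from RefSeq (GRCm38.p6) were held for 7 of the 8 genes, with none for Nlrp14. They are shown for the genes whose start regions resemble each other: Nlrp9a (chr7:26534873-26535022, plus strand), Nlrp9c (chr7:26403701-26403850, minus strand), the downstream start of Nlrp4a (chr7:26435464-26435613, plus strand, in the first intron of the longer transcript), Nlrp4b (chr7:10687643-10687792, plus strand) and Nlrp4c (chr7:6045011-6045160, plus strand). Each is the 150 bases before the start on the strand of the gene, 5′ to 3′, with every CCAAT box of either strand (CCAAT or ATTGG) in capitals.
Nlrp9a: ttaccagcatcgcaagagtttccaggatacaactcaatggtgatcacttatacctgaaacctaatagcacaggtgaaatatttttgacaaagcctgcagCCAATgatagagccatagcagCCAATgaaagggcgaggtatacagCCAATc
Nlrp9c: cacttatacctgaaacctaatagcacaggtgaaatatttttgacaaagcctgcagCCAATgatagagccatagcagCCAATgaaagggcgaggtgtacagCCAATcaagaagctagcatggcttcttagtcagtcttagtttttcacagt
Nlrp4a: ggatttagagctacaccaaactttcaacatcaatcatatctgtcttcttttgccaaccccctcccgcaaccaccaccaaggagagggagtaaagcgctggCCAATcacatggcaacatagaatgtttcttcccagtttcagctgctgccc
Nlrp4b: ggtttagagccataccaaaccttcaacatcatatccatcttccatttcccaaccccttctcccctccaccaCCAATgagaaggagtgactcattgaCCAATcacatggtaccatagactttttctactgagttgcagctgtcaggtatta
Nlrp4c: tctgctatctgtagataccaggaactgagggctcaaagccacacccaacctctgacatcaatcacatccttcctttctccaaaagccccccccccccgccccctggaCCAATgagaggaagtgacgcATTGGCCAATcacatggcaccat

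The Nlrp9a and Nlrp9c sequences were the same over a run of 94 bases, placed 44 bases nearer to the annotated start in Nlrp9a, and each held 3 CCAAT boxes in the same order. At least 3 CCAAT boxes were found in 3.37% of all 32851 promoter windows of 300 bases, and at least 1 in 37.4%. The Nlrp4a, Nlrp4b and Nlrp4c sequences shared the 12-base run ccaatcacatgg, which 7 of the 32851 windows held on either strand (6 genes: these 3, Dcxr, Oscp1 and Tmem52b). The letters CAGCTG, an E-box that reads the same on both strands, stood in a window of each of the 4 Nlrp4 genes and in no window of Nlrp9a, Nlrp9b or Nlrp9c, against 16.3% of all windows. The Nlrp9b and Nlrp4e windows held 0 and 1 CCAAT boxes. These are matches of letters only.

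Total counts per oocyte ranged from 976456 to 8231046, with a median of 3002990 in young and 2379880 in old oocytes, and levels are given as CPM, which scales the counts of an oocyte to the same total over all features. No label names the mouse of an oocyte, so each group is 1 sample with no replicate check, no test was run between groups, and SDs over oocytes describe spread only. Age cannot be told apart from the runs of consecutive oocyte names, 3 per age, whose meaning is not given. Of 10 oocyte markers, 9 had a feature and 8 averaged 100 counts or more per oocyte, which none of the 11 granulosa and cumulus markers with a feature did. These had, summed, medians of 41.6 to 48.6 CPM in the 4 groups, and reached 134 CPM in an old NSN oocyte. Old oocyte 15 has a total that differs from the supplementary table, and leaving it out changed no median log2 ratio by more than 0.1. Whether any of the 8 genes served in the prediction of configuration was not checked, so SN and NSN values are descriptions.

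Nlrp14 was the leading gene of the set and one of the most abundant transcripts of the oocyte, ranking 4 among the 38540 features by mean count. It took 0.609% of all counts and 57.9% of the counts of the 8 genes. Nlrp9b ranked 85, Nlrp9c 92, Nlrp4b 136, Nlrp9a 143 and Nlrp4a 145, while Nlrp4e ranked 1583 and Nlrp4c 5698. Together the 8 genes made up 1.05% of all counts in young and 1.06% in old oocytes, and single oocytes ranged from 0.560% to 1.61%. By configuration the share was 1.02% in young NSN, 1.10% in young SN, 1.01% in old NSN and 1.26% in old SN oocytes, where single oocytes stayed between 1.23% and 1.31%. All 8 genes had counts in all 87 oocytes. Nlrp4c, with a mean of 89.5 counts per oocyte, was the only one of the 8 below 100, so 7 of the 8 are among the 5366 features that pass this filter.

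Per length, the level of Nlrp14 over all 87 oocytes was 1721 CPM per kb of exon, that of Nlrp9b 280 CPM per kb and that of Nlrp9a 205 CPM per kb. Nlrp4b at 171 CPM per kb, Nlrp9c at 169 CPM per kb and Nlrp4a at 147 CPM per kb followed, and these neighbours in the order differed by less than their spread over oocytes. Nlrp4e had 42.3 CPM per kb and Nlrp4c 7.88 CPM per kb. With the longest transcript or the coding length in place of the exons, Nlrp14 stayed first, Nlrp4e next to last and Nlrp4c last, but the order of the other 5 changed and Nlrp9c came to 313 and 334 CPM per kb. The coefficient of variation over oocytes was 10.7% for Nlrp4a, 16.7% to 28.7% for Nlrp14, Nlrp9a, Nlrp9b, Nlrp9c, Nlrp4b and Nlrp4e, and 43.3% for Nlrp4c.

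**Figure D1:**
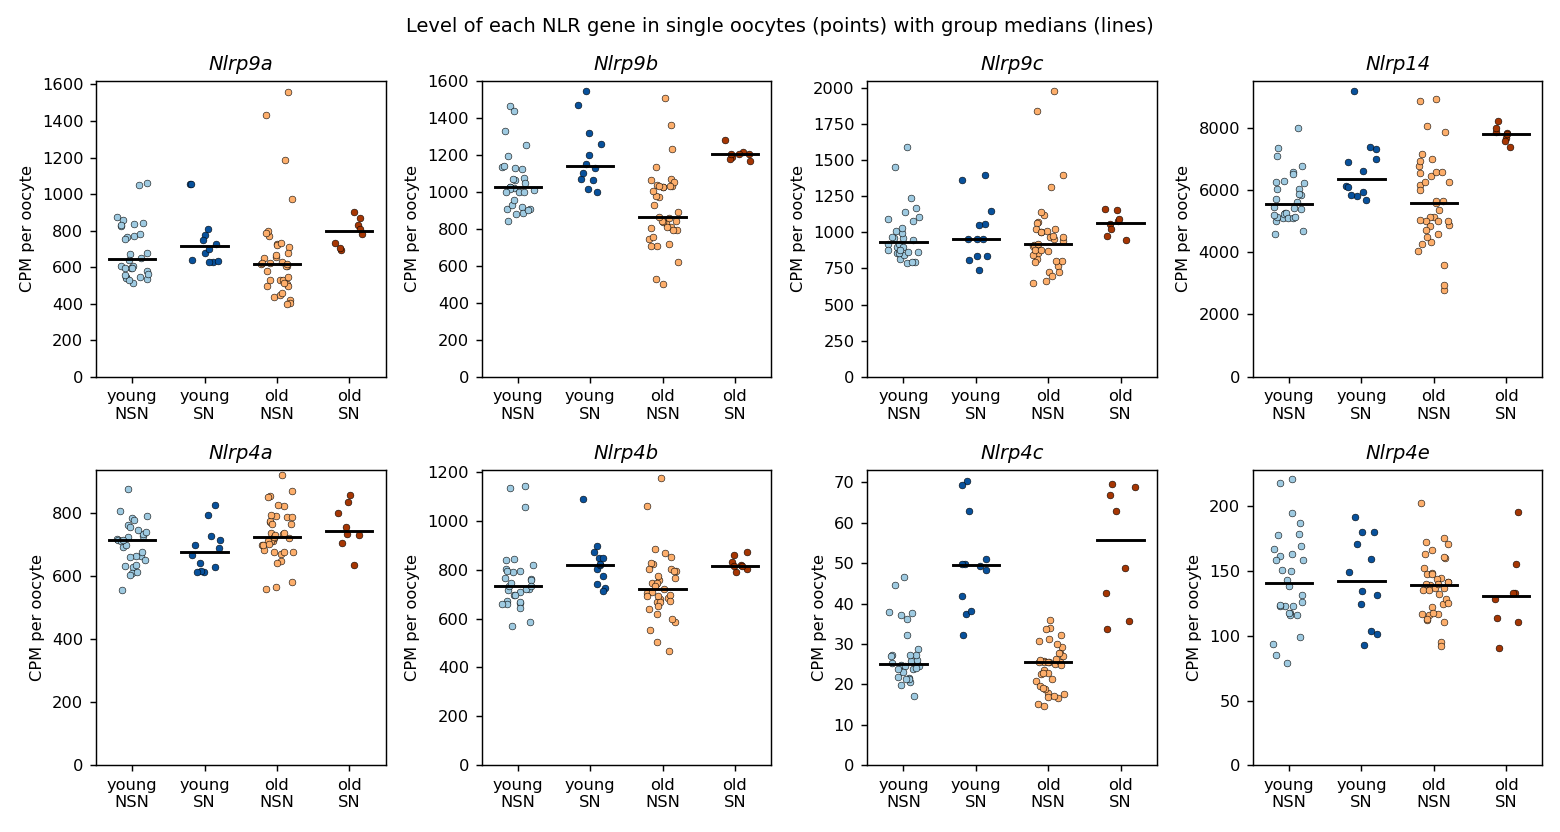
CPM of each of the 8 genes in single oocytes (points), in young NSN (30), young SN (12), old NSN (37) and old SN (8) oocytes, with the group median as a line; each panel has its own linear axis from 0. Nlrp4c was higher in SN oocytes of both ages, and the old SN oocytes lay close together for Nlrp14, Nlrp9b and Nlrp4b.

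Nlrp14, a maternal effect gene needed for early cleavage, had 6009 CPM in young and 6179 CPM in old oocytes when counts were pooled. Young NSN oocytes ran from 4592 to 7981 CPM with a median of 5543, and young SN oocytes from 5696 to 9186 CPM with a median of 6370 CPM. Old NSN oocytes ran from 2799 to 8929 CPM with a median of 5591, and the 8 old SN oocytes from 7370 to 8236 CPM with a median of 7815. The NSN medians of both ages were thus alike while the old NSN range reached further on both sides, with 8 of 37 old NSN oocytes below and 3 above the young NSN range, and the old SN oocytes were a narrow group near the top of the range. In NSN oocytes the log2 ratio, old over young, was 0.00 (95% counting interval -0.00 to 0.01). In SN oocytes it was 0.27 (0.26 to 0.28), with all 8 old SN oocytes above the median of the young SN oocytes and none above their highest value.

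The 3 Nlrp9 genes, of which Nlrp9b is known from the intestinal epithelium as a sensor of viral RNA, were present at similar levels. Nlrp9b had 1093 ± 171 CPM in young and 985 ± 219 CPM in old oocytes (SD over 42 and 45 oocytes). Its median was 1027 CPM in young NSN oocytes (843 to 1464) and 864 CPM in old NSN oocytes (503 to 1512), and the log2 ratio of old over young was -0.19 in NSN oocytes (-0.20 to -0.18). Its values overlapped between the ages, but 16 of 45 old oocytes lay below the lowest young oocyte, all of them NSN, and as many old oocytes fell below the young range in 0.335% of the 5366 features. In SN oocytes the ages were nearer, with medians of 1141 CPM in young (998 to 1549) and 1207 CPM in old oocytes (1168 to 1283).

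Nlrp9a had 708 ± 153 CPM in young and 722 ± 238 CPM in old oocytes. The median was 645 CPM in young NSN oocytes (515 to 1059), 713 CPM in young SN (628 to 1057), 620 CPM in old NSN (397 to 1561) and 797 CPM in old SN oocytes (696 to 901). Old oocytes thus extended past the young ones on both sides, 10 of them below the lowest and 3 above the highest young oocyte, where 3.09% of features had at least 10 below and 32.5% had at least 3 above. Nlrp9c had 988 ± 192 CPM in young and 1027 ± 255 CPM in old oocytes, with medians of 936 CPM in young NSN (785 to 1593), 954 CPM in young SN (743 to 1399), 917 CPM in old NSN (649 to 1983) and 1068 CPM in old SN oocytes (950 to 1166). The 4 groups overlapped for Nlrp9c, with a log2 ratio of old over young of 0.06 in all oocytes.

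The feature counted as Nlrp9b spans 286156 bases and takes in 6 other same-strand genes, Vmn1r91 and Vmn1r95 among them, so reads of these would count for it. Of the stretches of 100 bases (the read length) in transcripts of Nlrp9b, 2.11% also occur in transcripts of other genes, and for Nlrp9a and Nlrp9c 0.820% and 0.229% do. On the strand opposite to Nlrp9c another feature with 2155 counts overlaps it, and the strand setting of the count is not given in the sources used here.

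Nlrp4a, Nlrp4b, Nlrp4c and Nlrp4e belong to an Nlrp4 group with a single human counterpart, known to dampen type I interferon signalling. Nlrp4a was the steadiest of the 8 genes, at 696 ± 69.9 CPM in young and 728 ± 79.1 CPM in old oocytes. The medians of its 4 groups lay between 677 CPM in young SN (611 to 823) and 743 CPM in old SN oocytes (635 to 857), and the groups overlapped. Nlrp4b had 778 ± 129 CPM in young and 760 ± 126 CPM in old oocytes, with medians of 733 CPM in young NSN (567.8 to 1141), 820 CPM in young SN (711 to 1088), 719 CPM in old NSN (465.9 to 1173) and 817 CPM in old SN oocytes (788 to 871). For Nlrp4b the SN medians stood above the NSN medians at both ages, within overlapping ranges.

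Nlrp4e, whose coding sequence is nearest to that of Nlrp4c, had 147 ± 35.04 CPM in young and 141 ± 24.6 CPM in old oocytes. The medians were 140 CPM in young NSN (79.0 to 221), 142 CPM in young SN (92.5 to 192), 139 CPM in old NSN (92.2 to 202) and 130 CPM in old SN oocytes (90.3 to 195). The groups overlapped almost wholly, and the log2 ratio of old over young was -0.03 in NSN oocytes and -0.18 in SN oocytes (-0.24 to -0.11). Of its 100-base stretches 11.5% also occur in transcripts of Gm8486, Gm16443, Gm8685, Gm8728, Gm4541 or Nlrp4c. Of its 50-base stretches 36.7% occur in transcripts of other genes. For Nlrp4c these shares were 0.844% at 100 bases and 10.7% at 50 bases. Reads shortened by trimming were kept, and the counts of both genes are uncertain by an amount that was not tested.

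Nlrp4c, the least abundant gene, was the member that differed most between the predicted configurations. In young oocytes NSN values ran from 17.2 to 46.6 CPM with a median of 25.01, and SN values from 32.1 to 70.3 CPM with a median of 49.5. In old oocytes NSN values ran from 14.7 to 36.01 CPM with a median of 25.5, and SN values from 33.8 to 69.5 CPM with a median of 55.8. SN oocytes were thus higher at both ages with little overlap: 8 of 12 young SN oocytes lay above every young NSN oocyte, where 0.335% of features had as many, and 6 of 8 old SN oocytes lay above every old NSN oocyte, where 1.6% of features had as many. The pooled level was 1.68-fold higher in SN than NSN oocytes of young mice, a log2 ratio of 0.75 (0.67 to 0.84), and 2.19-fold higher in old mice, a log2 ratio of 1.13 (1.02 to 1.24). As Nlrp4c is below the filter on mean count, it was set beside the 4207 features that averaged 50 to 200 counts. The log2 ratio of Nlrp4c was above 99.5% of theirs in young and 98.9% in old oocytes. Of these features, 17.9% and 27.5% were higher by at least 0.2. In young oocytes 0.428% of them, and in old oocytes 2.61%, had as many SN oocytes above every NSN oocyte. The germ cell marker Ddx4, with a mean of 88.03 counts, had larger log2 ratios, 0.97 and 1.42. Within the runs of oocyte names the log2 ratio of Nlrp4c was 0.76 to 1.23 in the 3 young and 0.68 to 1.599 in the 3 old runs, some with only 1 to 3 SN oocytes. The log2 ratio stayed between 0.71 and 0.98 in young and between 0.87 and 1.38 in old oocytes in 12 alternatives each. Its close relative Nlrp4e had log2 ratios of 0.05 and -0.10 in these contrasts.

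**Figure D2:**
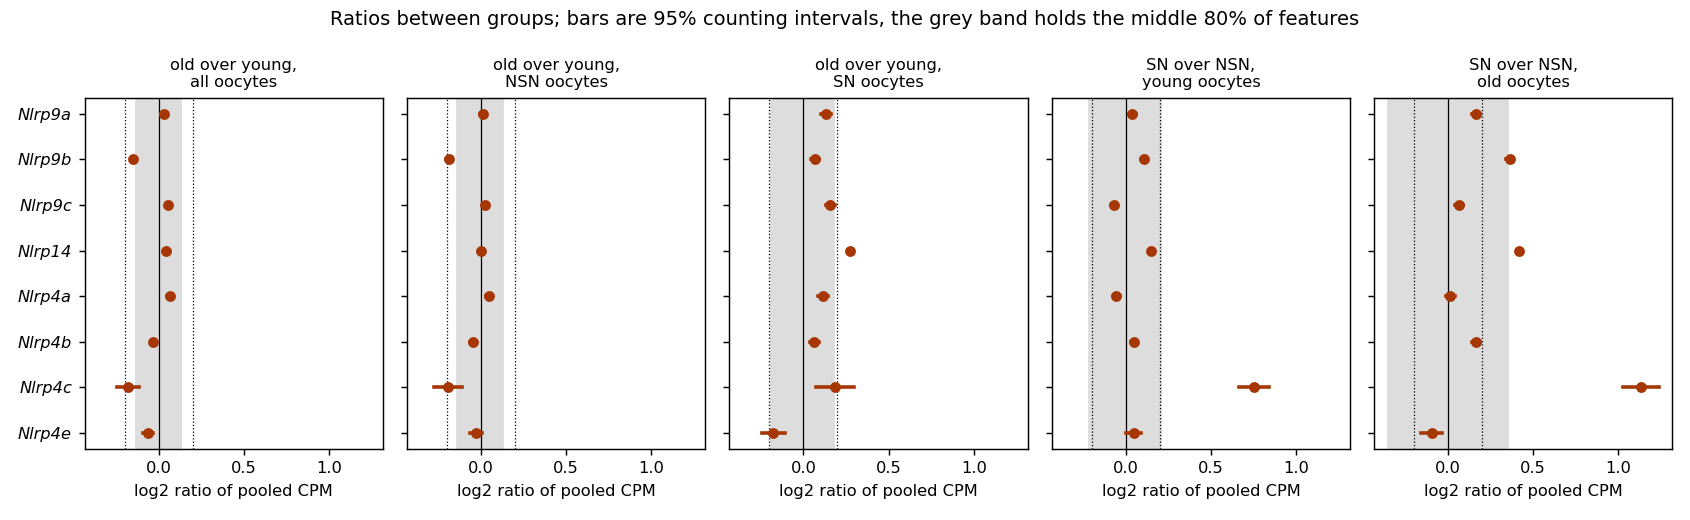
Log2 ratios of pooled CPM of the 8 genes in 5 contrasts (points), with 95% counting intervals (bars, often hidden by the point), the middle 80% of the 5366 features (grey band) and log2 ratios of -0.2 and 0.2 (dotted). The genes lie between -0.19 and 0.06 in old over young for all and for NSN oocytes, Nlrp14 is at 0.27 in SN oocytes, and Nlrp4c stands far to the right in SN over NSN, at 0.75 in young and 1.13 in old oocytes.

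Between the ages the pooled levels of the 8 genes were close in all oocytes and in NSN oocytes, and less so in SN oocytes. A log2 ratio of at least 0.2, about 1.15-fold, in either direction was taken as a change of note. In all oocytes no member was past it, with log2 ratios from -0.18 (Nlrp4c) to 0.06 (Nlrp4a) and a median of -0.00, where 2.65% of features were higher and 3.78% lower. In NSN oocytes again no member was past it (median -0.01), against 2.7% of features higher and 4.88% lower, although Nlrp9b and Nlrp4c, both at -0.19, were close. In SN oocytes 7 of 8 log2 ratios were above 0, as were 46.8% of all features, with a median of 0.12 against -0.01 over all features, and Nlrp14 was the only gene past the threshold, where 8.18% of features were higher and 9.13% lower.

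Between configurations the members ran from -0.07 (Nlrp9c) to 0.75 in young oocytes, and Nlrp4c was the only gene past the threshold, against 10.4% of features higher and 12% lower. In old oocytes Nlrp4c at 1.13, Nlrp14 at 0.42 (0.41 to 0.43) and Nlrp9b at 0.36 (0.34 to 0.38) were higher in SN, and no member was lower than -0.10, against 19.4% of features higher and 26.1% lower. Within the 3 old runs, each with 2 or 3 SN oocytes, the log2 ratio ran from 0.12 to 0.75 for Nlrp14 and from 0.12 to 0.62 for Nlrp9b. For Nlrp14, 8 of 8 old SN oocytes were above the median of the old NSN oocytes and none above their highest, 8929 CPM. The median over the 8 genes was 0.05 in young and 0.16 in old oocytes, against -0.02 and -0.05 over all features. Both contrasts of SN with NSN, and those of old with young, use the same 4 groups of oocytes.

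The levels of Nlrp14 and of the 3 Nlrp9 genes varied with the run of oocyte names. Pooled Nlrp14 was 5890 to 6221 CPM in the 3 young runs, and 5557 CPM in old oocytes 9 to 16, 5298 CPM in old oocytes 25 to 31 and 7258 CPM in old oocytes 41 to 48. The old runs thus lay on both sides of the young ones, and the same held for Nlrp9a (561 to 918 CPM in old, 664 to 741 CPM in young runs), Nlrp9c (866 to 1230 CPM in old, 927 to 1049 CPM in young runs) and, by a small margin at the upper end, Nlrp9b (872 to 1126 CPM in old, 1072 to 1121 CPM in young runs). Nlrp4c alone had all old runs, 26.7 to 30.9 CPM, below all young runs, 31.4 to 34.4 CPM, as had 5.18% of features. In NSN oocytes its old runs, 22.6 to 25.25 CPM, lay below the young runs, 25.32 to 29.97 CPM, by a small margin. There 5.67% of features had this order. Medians over the oocytes of a run did not separate the ages for Nlrp4c. In all oocytes they were 25.75 CPM in old oocytes 25 to 31 and 25.46 CPM in young oocytes 1 to 7. In NSN oocytes they were 25.53 CPM in old oocytes 9 to 16 and 24.73 CPM in young oocytes 17 to 24. The number of SN oocytes differed between runs, from 1 to 6 in young and from 2 to 3 in old runs.

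**Figure D3:**
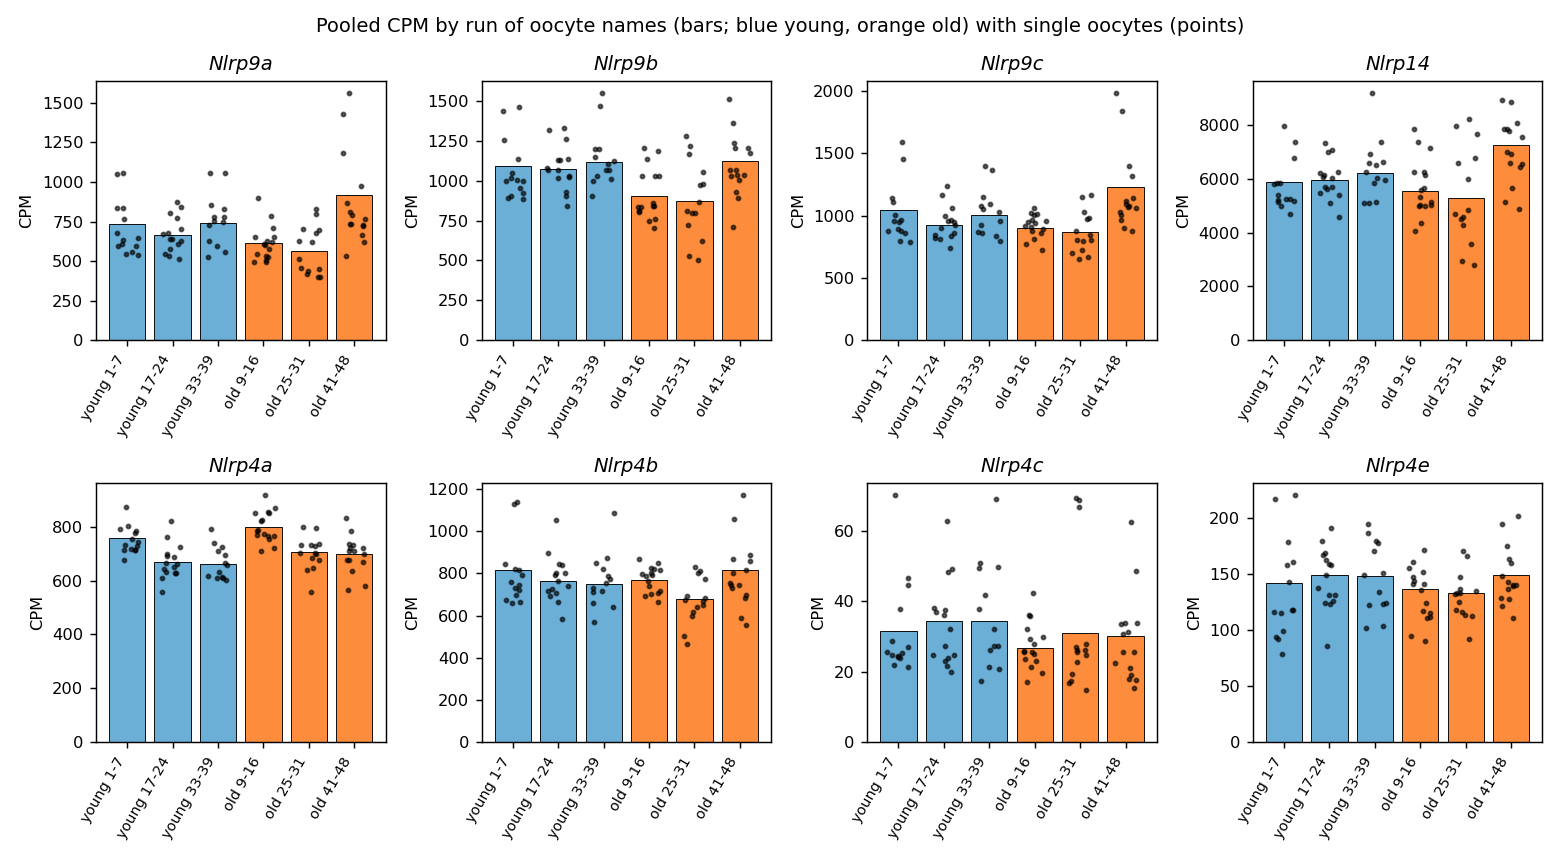
Pooled CPM of each gene in the 6 runs of consecutive oocyte names (bars from 0; blue young, orange old) with the single oocytes (points). Old oocytes 41 to 48 stood highest for Nlrp14, at 7258 CPM, and for Nlrp9a and Nlrp9c, and old oocytes 25 to 31 lowest.

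Without old oocytes 41 to 48 the median log2 ratio of the 8 genes, old over young, was -0.16 in all oocytes with 3 genes lower, where the median over all features was 0.01 and 6.09% of features were lower. In NSN oocytes it was -0.22 with 5 genes lower, where the median over all features was 0.02 and 7.01% were lower. The age comparison thus depended on this run, and did so on the suffix of the oocyte name as well. Pooled Nlrp9a was 664 CPM in young and 797 CPM in old oocytes with the suffix A, and 752 CPM in young and 651 CPM in old oocytes without it. The oocytes low in these genes were partly the same ones: of 45 old oocytes, 19 lay below the young range in at least 1 of Nlrp9a, Nlrp9b, Nlrp9c and Nlrp14, 11 in at least 2, 6 in at least 3 and 3 in all 4. None of the 19 was an SN oocyte, 9 were among old oocytes 25 to 31, 9 among 9 to 16 and 1 among 41 to 48. For Nlrp14 alone 8 old oocytes were below the young range, where 5.8% of features had as many.

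Oocytes had been cleaned of adhering granulosa cells and inspected before lysis. In the 37 old NSN oocytes the summed granulosa and cumulus markers, which came mainly from Nr5a2, Kitl and Inha, ran against the levels of Nlrp9a (Spearman rho -0.55), Nlrp9c (-0.50), Nlrp14 (-0.50) and Nlrp9b (-0.46). In the 30 young NSN oocytes the same values were 0.13, 0.17, 0.11 and 0.19. Amh, Amhr2 and Foxl2 were the only 3 of the 11 markers with mean counts below 1. Fshr, Fst, Inhba, Cyp11a1 and Hsd17b1 had means of 1.59 to 4.48 counts, Inha 16.6, Kitl 33.2 and Nr5a2 73.6. The part of other cells in the levels was not tested.

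Spread between oocytes was larger in old mice for most of the set, as for most features. It was measured as dispersion, the squared coefficient of variation less counting noise. Nlrp14 had a dispersion of 0.0650 in old and 0.0247 in young oocytes, a log2 ratio of 1.40, and Nlrp9a followed with 1.38, Nlrp9b with 1.09 and Nlrp9c with 0.83. Nlrp4c had 0.43, Nlrp4a 0.19 and Nlrp4b 0.04, whereas Nlrp4e had a lower dispersion in old oocytes, 0.0289 against 0.0572, a log2 ratio of -0.99. The ratio was thus above 0 for 7 of 8 genes, where it was above 0 in 78.6% of features, and the median was 0.63 against 0.51 over all features and 0.58 over the 464 features that averaged 1000 counts or more. Nlrp14 lay at percentile 90.8 and Nlrp4e at percentile 0.839 of all features.

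**Figure D4:**
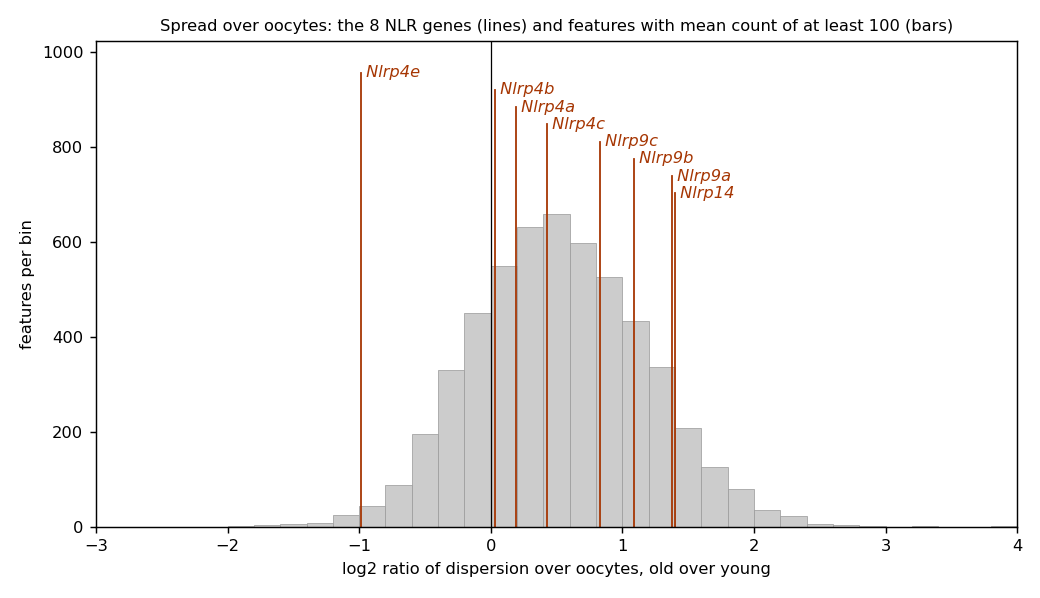
Log2 ratio of dispersion over oocytes, old over young, of the 8 genes (lines with names) over the histogram of the 5366 features (bars, features per bin of 0.2). Nlrp14 at 1.40 and Nlrp9a at 1.38 lie in the right-hand part of the histogram and Nlrp4e at -0.99 near its left end.

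For Nlrp4c the dispersion over all oocytes included the difference between configurations, and in NSN oocytes alone its log2 ratio was -0.80. In the NSN oocytes Nlrp14 had 1.72, Nlrp9a 1.62, Nlrp9b 1.25 and Nlrp9c 1.16. These values also depended on the runs. Without old oocytes 41 to 48 the ratio of Nlrp9a was 0.05 and that of Nlrp9c -0.76, while that of Nlrp14 was 1.46 and that of Nlrp9b 1.06, and the median over all features was 0.36. Without old oocytes 25 to 31 it was Nlrp14 and Nlrp9b that came down, to 0.82 and 0.68, with a median over all features of 0.43. Within runs, the dispersion of Nlrp14 was 0.114 in old oocytes 25 to 31 and 0.0302 to 0.0353 in the other 2 old runs, against 0.0158 to 0.0303 in young runs. In the 8 old SN oocytes the dispersion was low for Nlrp14, Nlrp4b and Nlrp9b, at percentiles 1.94, 1.08 and 0.862 of the 464 most abundant features.

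Over the 67 NSN oocytes, with the median of each age subtracted, Nlrp9a, Nlrp9b, Nlrp9c and Nlrp14 varied together. Spearman rho was 0.79 for Nlrp9a with Nlrp9b, 0.77 for Nlrp9a with Nlrp9c, whose promoters share the run of 94 bases shown above, 0.75 for Nlrp14 with either Nlrp9a or Nlrp9b, 0.70 for Nlrp14 with Nlrp9c and 0.67 for Nlrp9b with Nlrp9c. Nlrp4b went with these 4 genes (0.62 to 0.65), Nlrp4e less closely (0.29 to 0.41) and Nlrp4c weakly (0.16 to 0.23). Nlrp4a, which lies between Nlrp9c and Nlrp9a, had 0.05 to 0.09 with them, and its nearest member was Nlrp4b (0.47). Nlrp4c and Nlrp4e, the pair closest in sequence, had a rho of 0.02.

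**Figure D5:**
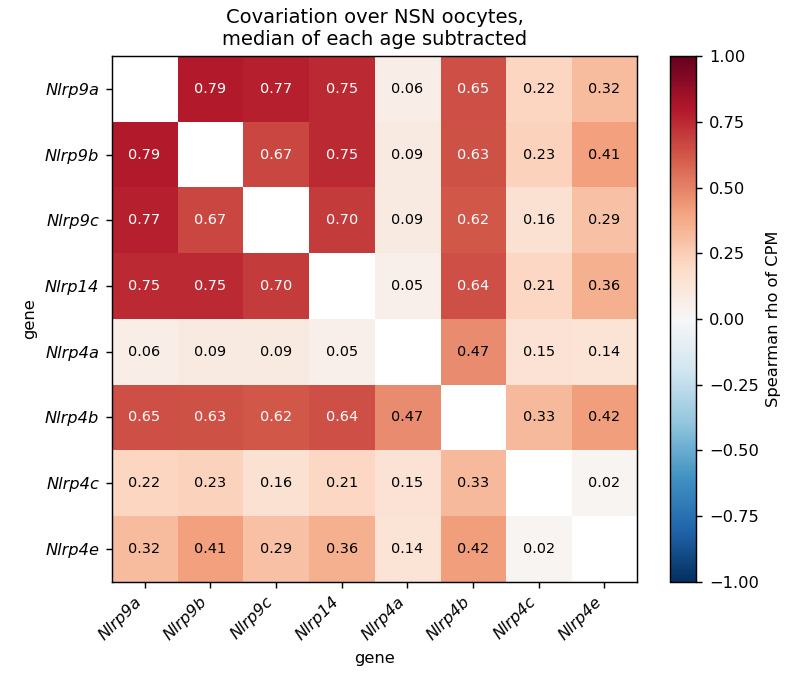
Spearman rho of CPM between each pair of the 8 genes over 67 NSN oocytes, with the median of each age subtracted (red positive, blue negative; the diagonal is left blank). Nlrp9a, Nlrp9b, Nlrp9c and Nlrp14 form a block of 0.67 to 0.79, and the row of Nlrp4a is pale apart from Nlrp4b at 0.47.

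By age, the 6 pairs among Nlrp9a, Nlrp9b, Nlrp9c and Nlrp14 had 0.75 to 0.83 in young and 0.66 to 0.82 in old NSN oocytes, and Nlrp4a with these genes had 0.19 to 0.31 in young and -0.13 to 0.01 in old NSN oocytes. All 28 pairs were above 0, with a median rho of 0.34. Over the 107416 pairs of the 464 most abundant features the median was 0.01 with a middle 80% from -0.39 to 0.42, and 15.2% of pairs were above 0.34. The points share the library of each oocyte, and a share of counts taken by abundant features lowers those of others. Within runs, with the median of each run subtracted, the 6 pairs of Nlrp9a, Nlrp9b, Nlrp9c and Nlrp14 had 0.62 to 0.76. Nlrp4b with these 4 genes had 0.68 to 0.75, inside the range of the 6 pairs. Nlrp4a then had 0.23 to 0.36 with these 4 genes, close to the 0.24 to 0.42 of Nlrp4e, and within old oocytes 41 to 48 it had 0.64 to 0.78. In old oocytes 9 to 16 the 6 pairs were lower, from -0.23 for Nlrp9c with Nlrp14 to 0.50 for Nlrp9a with Nlrp9b. The Spearman correlation of the 8 genes with the total count of the oocyte was between 0.03 and 0.30 in young NSN and between -0.22 and 0.43 in old NSN oocytes.

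The features most like the summed CPM of the 8 genes over the same NSN oocytes were Catsper2, a gene of the sperm calcium channel (rho 0.91), the feature TCONS_00045081 on chromosome 17, for which no name was found (0.88), Hsp90b1, a chaperone of the endoplasmic reticulum (0.85), Lonrf3 (0.83) and Gm33819 (0.82). Over the 5359 other features that passed the filter the median was -0.08 and the upper 10% began at 0.38. Nlrp14 makes up 57.9% of the summed counts.

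Among related genes, the NLRs of the subcortical maternal complex did not share a direction with each other between configurations. Nlrp5 and Nlrp2 had log2 ratios, SN over NSN, of 0.42 and 0.32 in young and of 0.59 and 0.65 in old oocytes, and Nlrp4f had -0.10 and -0.18. Nlrp4g, a further Nlrp4 gene ranking 150 among all features, had -0.13 and -0.03, and Nlrp4d had 0 counts over 87 oocytes, which at a limit of 3 counts allows a level of up to 0.0122 CPM. Nlrp4c with 0.75 and 1.13 was above each of these. The other subcortical maternal complex genes, of which 4 of 5 had a feature (Tle6, Khdc3, Padi6 and Zbed3), all passed the filter.

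Most of the NLRs known for innate immunity that had a feature had few counts, with the exception of Nlrc4 and Nod2. Of 17 such genes 8 had a feature, and 5 of the 8 had mean counts below 1. Those without a feature were not measured. Nlrc4, with a mean of 125 counts, and Nod2, with 76.0, were detected in all 87 oocytes, at about the level of Nlrp4c. Pycard, the inflammasome adaptor, had a mean of 0.0920 counts and Gsdmd, the pore-forming effector, 0.138 counts, and of 6 inflammasome partners 3 had a feature and none reached a mean count of 100. The 8 oocyte NLR genes, with mean counts from 89.5 to 17247, thus stood beside means below 2 counts for the 3 inflammasome partners with a feature. Of 6 immune cell markers 2 had a feature, and their sum reached 48.6 CPM in an old NSN oocyte.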

How the data were processed

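Single GV oocytes were processed by scM&T-seq, with Smart-seq2 cDNA and single-end reads of 100 bases. Reads were trimmed and mapped by the authors with HiSat2 (GRCm38), and the deposited values are raw counts of primary alignments over features of an oocyte transcriptome assembly. The counting program and its strand setting are not given in the sources used here, and the reads carry no molecular identifiers. Of the 8 genes, 6 were matched to features by the supplementary table and 2 (Nlrp4b and Nlrp4e) by overlap of spans with GENCODE M21 (Jaccard index at least 0.3). Groups came from the labels and the study's predicted configuration. Counts were summed per group and divided by summed totals, with exact 95% intervals (Poisson or binomial) for counting error only. The text names all 8 genes, related genes from lists, and the 5 features most like their sum. The genes and lists were chosen with earlier results of these data known. Alternatives covered scaling (TMM in edgeR 4.0.16, R 4.3.3), thinning to 900000 counts, estimators, thresholds, runs and oocytes. A log2 value was taken as moved past 0.1, and a number past 1.5 times. Calculations used Python 3.11.15, numpy 2.4.6, scipy 1.17.1 and Biopython 1.88, and were tested on simulated data. Totals equalled those of the supplementary table in 87 of 88 oocytes.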

Additional observations from a re-analysis of the deposited data

Results flagged for a closer look

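In the 8 old SN oocytes, the only group of 4 to 10 oocytes, the highest oocyte for Nlrp9b, at 1283 CPM, lay far from the rest relative to their narrow range. The next highest had 1218 CPM and the lowest 1168 CPM, so that the gap was 0.569 of the range, above Dixon's 95% critical value for 8 values. Chance flags about 1 in 20 groups, and 16 gaps (the highest and lowest oocyte of each of 8 genes) were looked at. None of the other 15 gaps passed.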

How the results depend on the processing

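Alternatives with other scaling (TMM factors, median of ratios), thinning, all 88 oocytes, all same-strand features of a gene, or without old oocyte 15 moved no median log2 ratio between groups by more than 0.1, and scaling shifted log2 ratios by at most 0.04. The leaving out of single oocytes was chosen after seeing the data. The oocytes kept mattered most, and the cause was not tested. For old over young in all oocytes, leaving out a run or an oocyte gave medians from -0.16 to 0.061 and 0 to 3 genes lower. Oocytes with no name suffix gave -0.13 with 3 genes lower, those with suffix A 2 genes higher, and a log2 threshold of 0.1 gave 2 lower. In NSN oocytes, leaving out gave -0.22 to 0.054 and 0 to 5 genes lower, suffix A 0.11 with 2 genes higher, no suffix -0.21 with 4 lower, means or medians over oocytes 1 lower, and a threshold of 0.1 gave 2 lower. In SN oocytes, leaving out gave 0.023 to 0.15, 1 to 3 genes higher and 0 to 1 lower, without oocyte 15 there were 2 higher, suffix A gave 2 higher and 1 lower, no suffix 3 higher, a threshold of 0.1 gave 5 higher and 1 lower, and a threshold of 0.3 gave 0 higher.

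For SN over NSN in young oocytes, leaving out gave 0.01 to 0.11 and 0 to 1 genes lower, suffix A 0.23 with 4 higher, no suffix -0.074 with 1 lower, thinning, means or medians 2 higher, and a threshold of 0.1 gave 3 higher. In old oocytes, leaving out gave 0.069 to 0.39 and 3 to 6 genes higher, medians 0.29 with 5 higher, no suffix 0.34 with 5 higher, and a threshold of 0.1 gave 5 higher.

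The median log2 ratio of dispersion, 0.63, was 0.94 with all 88 oocytes, 0.81 after thinning, 0.74 with TMM, 0.73 with median of ratios, 0.91 for suffix A and 0.045 to 1.04 on leaving out, and turned to -0.038 for no suffix. Nlrp9c turned to -0.37 for no suffix and ran from -0.76 without old oocytes 41 to 48 to 1.22 on leaving out a run, and Nlrp4c ran from -0.48 without old oocytes 25 to 31 to 0.87, and turned to -0.80 in NSN oocytes. Of the values for single genes, levels and shares, 538 were stable, 174 moved and 4 reversed. A filter on mean count of 10 or 1000 moved 11 shares of features past the threshold. Low counts limit Nlrp4c. No paired analysis was possible because no test was run and what a shared oocyte number marks is not given. SN over NSN within runs was added after seeing the data.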

Other observations

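Old oocyte 48A has no predicted configuration, was taken as the one oocyte that the study excluded, and is in none of the groups. It was low in most of the 8 genes. It had 2154 CPM of Nlrp14, 246 CPM of Nlrp9a and 224 CPM of Nlrp9b, each below the lowest of the 87 other oocytes. Nlrp4a at 278 CPM, Nlrp4b at 295 CPM and Nlrp4e at 37.1 CPM were also below every other oocyte, while Nlrp9c at 770 CPM and Nlrp4c at 16.4 CPM were within the range of the other old oocytes.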
